A study of Mus musculus with 6 samples.

Results

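Macrophages sorted from mice with MLL-AF9-induced AML (MA9) were compared with macrophages of mice without leukemia (WT), both without iron loading. The members described are the protein-coding genes with an FPKM (fragments per kilobase of exon, scaled to the depth of the library, so a level per length of transcript) of at least 1 in either library. They number 11027 of the 21995 protein-coding genes and of the 54532 genes in the files, and immunoglobulin segments are given apart. The leukemia was made by infecting c-kit+ BM cells of C57BL/6J mice with a retrovirus that carries MLL-AF9 and GFP, so it is expressed from the virus rather than from the native locus. GFP+ AML cells of such mice were transplanted into C57BL/6 mice aged 6 to 8 weeks, and the MA9 recipients then received 6 intraperitoneal injections of PBS. WT mice were C57BL/6 mice that had no transplant and received the same PBS. According to the methods, macrophages were sorted as GFP-negative Gr-1lo F4/80+ CD115int cells, and the number of mice behind a library was not given in the sources used here. Where the macrophages came from is in conflict: the labels give Spleen, the methods give BM, and the files could not settle it.

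The series holds 6 libraries, 1 for each condition: macrophages of WT, MA9, WT/FE and MA9/FE mice, where FE marks iron dextran in place of PBS, and GFP+ leukemia cells from the BM under PBS and under FE. The depth recovered from the values was between 16085347 and 19518359 reads per library. With 1 library per condition, a difference between MA9 and WT has no replicate check, and its intervals cover counting error only. The MA9/FE and WT/FE pair shares no library with the MA9 and WT pair and is given beside it as a separate look at leukemia, under iron.

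Macrophages are long-lived phagocytes that clear dying cells, recycle iron from red cells and present antigen. Leukemia-associated macrophages (LAMs) are those that live beside leukemia cells, and they are known to take on altered polarization and to regulate T cells. Neutrophils pass through a progenitor stage that makes azurophil granule proteases and a later stage that makes the secondary granule proteins. Erythroid cells, basophils and plasma cells have gene programs of their own, and genes of these programs serve as markers of the cells.

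The libraries were first checked against markers of macrophages and of the other cells that a sort could hold. Adgre1, which encodes F4/80, stood at 40.1 FPKM in WT and 32.2 in MA9, and Csf1r, which encodes CD115, at 56.6 and 63.9. The 22 macrophage core markers summed to 1301 FPKM in WT and 1292 in MA9. They summed to more in leukemia cells, 2064 FPKM in MA9 and 2373 in MA9/FE, although 13 of the 22 were higher in MA9 macrophages than in both. MA9 leukemia cells had 28.6 FPKM of Adgre1 and 66.6 of Csf1r. The sum and these 2 genes thus do not set macrophages apart from leukemia cells. B cell markers were high in both libraries as well. Cd79a, a chain of the B cell receptor, had 745 FPKM in WT and 415 in MA9, and the 23 listed B cell genes summed to 3120 and 1938. In both libraries labelled as macrophages the B cell list thus summed to more than the macrophage core list, and all differences below are those of the sorted population as a whole. In such bulk samples, fewer cells of a type and less of its RNA per cell cannot be told apart.

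Across the 11027 genes, 468 (4.24%) differed at least 2-fold between MA9 and WT on the log2(FPKM + 1) scale, and 436 of these (3.95% of the genes) were higher in MA9, whereas 32 (0.290%) were lower. The median difference over all genes was -0.0036, with quartiles of -0.20 and 0.22, so most genes lay close to the line of equal levels. Of the 436 higher genes, 53 were at least 4-fold and 16 at least 8-fold higher. Of the 32 lower genes, Slc15a2 and Gm6020 were at least 4-fold lower and 0 were 8-fold lower. A difference of any size above 0 was held by 49.5% of the genes and one below 0 by 50.5%, which is the background for the lists below. List counts and medians cover all measured members of a list, also those under 1 FPKM, unless stated. The counting interval of the recovered reads excluded a ratio of 1 for 434 of the 436 and for 31 of the 32. These genes were picked for their difference in the same reads, and the share over all genes was not counted. The intervals are therefore no separate support for the differences. The 15 largest positive differences among genes with at least 5 FPKM, predicted genes apart, were those of S100a9, Ngp, S100a8, Camp, Ltf, Chil3, Lcn2, Elane, Mpo, Prss34, Ctsg, Prtn3, Cd177, Stfa1 and Fcnb, most of which encode proteins known from neutrophils and their progenitors. On the log2(FPKM + 1) scale, genes near the limit of 1 FPKM can hardly reach a 2-fold difference. The 218 genes whose higher level was between 1.0 and 1.2 had a median difference of 0.08. The 278 genes between 0.8 and 1.0, which were left out, had one of 0.01. Because the scale keeps such differences small, these values cannot show what the limit left out.

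**Figure D1:**
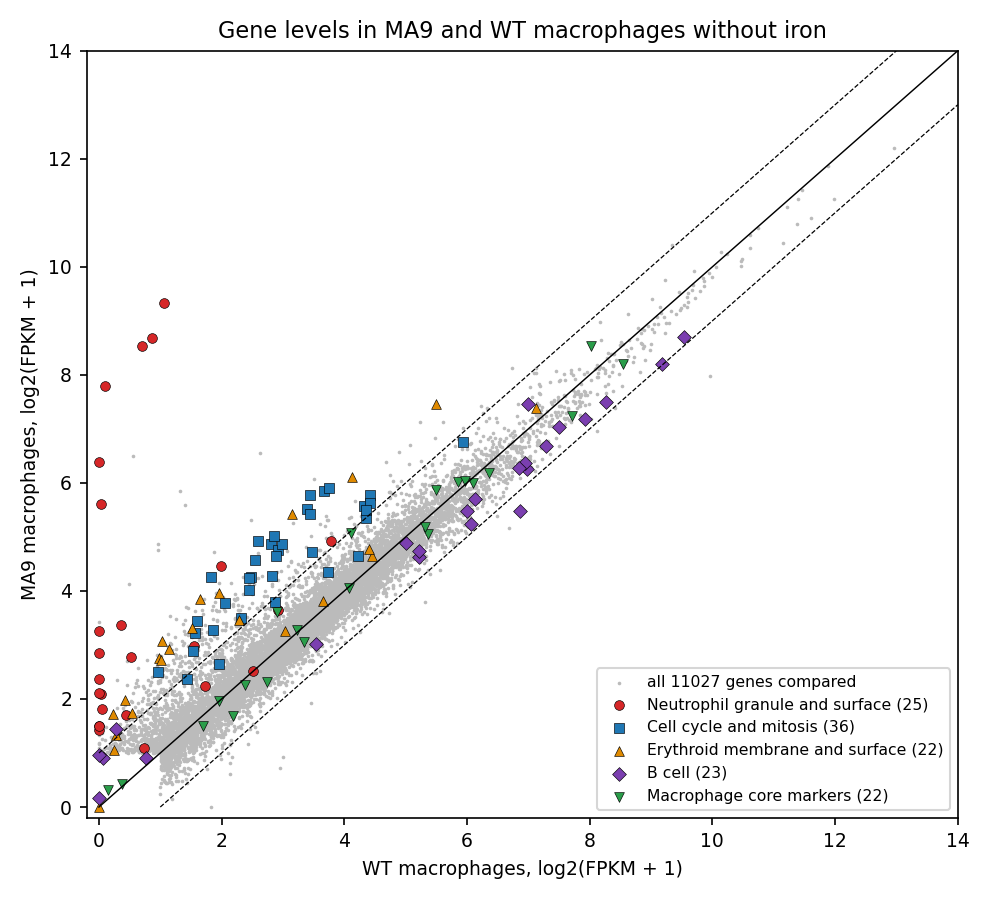
Level of each of the 11027 genes in WT macrophages (x axis) and MA9 macrophages (y axis), both as log2(FPKM + 1), with 5 gene lists coloured and dashed lines at a 2-fold difference. Neutrophil genes lie at the left and far above the line, cell cycle and erythroid membrane genes lie above it, B cell genes mostly just below it and macrophage core markers along it.

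Sequences upstream of the genes are shown for the groups that were high together in MA9, because members of a group can share a factor's binding letters. They are the 250 bases before the start of the RefSeq transcript (GRCm38.p6), 5' to 3' on the gene's strand, and capitals mark every match on either strand. For the neutrophil granule genes the search was for TTGCNNAA, the core letters bound by C/EBP factors, which direct granulocyte development. The windows are chr3:90695722-90695971 (minus strand) for S100a9, chr9:110419558-110419807 (plus strand) for Ngp and chr9:111019042-111019291 (plus strand) for Ltf.
S100a9: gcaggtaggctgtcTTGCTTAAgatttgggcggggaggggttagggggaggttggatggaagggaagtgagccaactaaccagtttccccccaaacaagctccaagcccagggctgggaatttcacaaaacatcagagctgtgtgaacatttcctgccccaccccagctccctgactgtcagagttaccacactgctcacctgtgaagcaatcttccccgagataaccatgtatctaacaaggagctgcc
Ngp: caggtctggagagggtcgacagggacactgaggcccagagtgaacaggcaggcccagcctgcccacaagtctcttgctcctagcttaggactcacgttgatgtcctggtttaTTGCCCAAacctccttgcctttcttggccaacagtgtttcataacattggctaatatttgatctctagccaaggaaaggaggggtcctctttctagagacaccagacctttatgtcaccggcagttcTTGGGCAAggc
Ltf: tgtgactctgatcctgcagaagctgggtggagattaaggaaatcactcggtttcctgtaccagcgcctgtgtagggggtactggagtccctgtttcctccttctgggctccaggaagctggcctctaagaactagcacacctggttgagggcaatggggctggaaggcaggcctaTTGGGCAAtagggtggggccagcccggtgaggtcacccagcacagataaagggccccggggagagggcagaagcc
Such a match was present in 9 of the 21 neutrophil granule and surface genes with a promoter in the table (42.9%), against 1483 of 16507 protein-coding genes (8.98%). For the azurophil granule and progenitor genes it was present in 1 of 13 (7.69%), and for the basophil and mast cell genes in 6 of 15 (40%). A match is a description of letters and not a binding site.

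For the erythroid and basophil genes the search was for AGATAA, the letters that GATA factors such as GATA1 and GATA2 prefer, and for the cell cycle genes it was for CCAAT, the letters bound by NF-Y. The windows are chr6:41704326-41704575 (minus strand) for Kel, the Kell blood group protein of red cells, chr17:25298144-25298393 (plus strand) for Prss34, a basophil protease, and chr13:100786487-100786736 and chr9:70421555-70421804 (both minus strand) for the mitotic cyclins Ccnb1 and Ccnb2.
Kel: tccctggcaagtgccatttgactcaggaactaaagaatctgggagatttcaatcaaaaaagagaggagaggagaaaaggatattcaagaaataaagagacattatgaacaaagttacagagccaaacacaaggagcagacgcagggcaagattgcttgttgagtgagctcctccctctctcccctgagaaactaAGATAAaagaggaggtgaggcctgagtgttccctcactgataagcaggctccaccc
Prss34: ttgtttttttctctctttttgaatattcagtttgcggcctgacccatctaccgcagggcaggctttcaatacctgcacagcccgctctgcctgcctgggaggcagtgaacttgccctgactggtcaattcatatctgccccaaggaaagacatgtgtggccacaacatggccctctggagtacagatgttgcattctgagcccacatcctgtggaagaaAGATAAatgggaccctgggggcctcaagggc
Ccnb1: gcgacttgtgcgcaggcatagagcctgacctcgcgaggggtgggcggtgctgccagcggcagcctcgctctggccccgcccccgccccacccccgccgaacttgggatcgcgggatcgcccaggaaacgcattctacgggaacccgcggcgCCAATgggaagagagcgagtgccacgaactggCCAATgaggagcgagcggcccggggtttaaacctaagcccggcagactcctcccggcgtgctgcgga
Ccnb2: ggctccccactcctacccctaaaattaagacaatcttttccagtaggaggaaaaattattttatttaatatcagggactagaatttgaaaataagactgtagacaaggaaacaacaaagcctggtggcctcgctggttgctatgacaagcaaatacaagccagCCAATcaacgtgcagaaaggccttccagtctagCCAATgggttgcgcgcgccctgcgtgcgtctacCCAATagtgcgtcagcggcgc
AGATAA was present in 5 of 14 erythroid membrane genes (35.7%) and 6 of 15 basophil and mast cell genes (40%), against 8.85% of the 16507 promoters. It was present in 2 of 11 erythroid transcription factor genes (18.2%) and 1 of 10 heme biosynthesis genes (10%). CCAAT was present in 23 of 30 cell cycle genes (76.7%), against 36.1% of the promoters, and also in 8 of 10 MHC class II genes (80%), whose median difference was -0.69.

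The neutrophil genes stood out in size. S100a9, which with S100a8 forms calprotectin, a calcium- and zinc-binding protein of neutrophils and monocytes, had 1.08 FPKM (11 reads) in WT and 646 (5736 reads) in MA9. The ratio was 599, with a 95% counting interval from 334 to 1199.9. S100a8 went with it, at 0.812 FPKM in WT and 410.5 in MA9. Both genes were close to absent in WT and among the abundant transcripts in MA9. Ngp, a secondary granule protein, had 0.629 FPKM in WT and 372 in MA9. Camp, the cathelicidin precursor, had 1 read in WT and 2835 in MA9, a ratio of 3255 with an interval from 584 to 128597. Ltf, which encodes the iron-binding lactoferrin, had 0 reads in WT and 82.2 FPKM (4824 reads) in MA9, at least 1846-fold higher when 0 is taken as a floor of 3 reads. Lcn2, a siderophore-binding protein that limits iron for bacteria, had 1 read in WT and 47.8 FPKM (2130 reads) in MA9.

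Of the 25 neutrophil granule and surface genes, 21 were at least 2-fold higher in MA9 and 0 were lower, with a median difference of 2.12 against -0.0036 over all genes. The 4 others also lay above 0: Csf3r, the G-CSF receptor (0.73), Il1r2 (0.52), the chemokine receptor Cxcr2 (0.36) and the protease Mmp9 (0.01). These 4 differed less than the secondary granule genes named above. Ly6g, the neutrophil antigen that Gr-1 antibodies bind, reached 1.69 FPKM in MA9 from 0 reads in WT. Cebpe, the factor needed for secondary granules, had 0.289 FPKM in WT and 9.34 in MA9. Of the 16 azurophil granule and progenitor genes, 7 were at least 2-fold higher and 0 lower, with a median of 0.67. Elane, neutrophil elastase, had 1.51 FPKM in WT and 56.8 in MA9, Mpo, myeloperoxidase, had 1.63 and 47.1, and the protease Prtn3 had 0.947 and 26.1. Kit (26.8 and 24.4 FPKM), Flt3 (42.4 and 32.5) and Spi1 (110 and 96.3) of the same list were not higher in MA9.

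Monocyte genes did not move as a group. Of 20 inflammatory monocyte genes, 5 were at least 2-fold higher in MA9 and 0 lower, and the median was 0.13. The 5 were Chil3 (0.471 FPKM in WT and 88.9 in MA9), Hp, haptoglobin (2.68 and 25.5), Ly6c2 (10.3 and 66.6), Clec4e (0.464 and 3.34) and Thbs1 (0.202 and 1.77). MA9 leukemia cells had 413 FPKM of Hp, 524 of Ly6c2 and 6.74 of Clec4e. Of the 20 genes, 13 were higher there than in MA9 macrophages, against 52.7% of all genes compared. Ccr2, the chemokine receptor of inflammatory monocytes, was at 5.96 and 5.19 FPKM.

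The levels in the leukemia cells of the same MA9 condition were set beside these. S100a9 was at 1029 FPKM there, Ngp at 418, Elane at 1705, Mpo at 775 and Prtn3 at 927. The azurophil genes Elane, Mpo and Prtn3 were thus much further above their MA9 macrophage levels in leukemia cells than S100a9 and Ngp were. Ltf went the other way, with 51.8 FPKM in leukemia cells against 82.2 in MA9 macrophages, and Lcn2 had 45.7 against 47.8. Of the 25 neutrophil genes, 21 had a higher level in leukemia cells than in MA9 macrophages, and 3 had a higher level in MA9 macrophages than in both leukemia cell libraries. Hoxa9, a target of MLL-AF9 that leukemia cells express, was at 0.119 FPKM in WT, 0.791 in MA9 macrophages and 40.6 in leukemia cells, and Hoxa10 was at 0, 0.234 and 21.2. Hoxa5 went the other way, with 3.28 FPKM in WT, a difference of -1.09 in MA9 macrophages and 36.6 FPKM in leukemia cells, and so did Hoxa6, with 1.64 FPKM in WT, 0.538 in MA9 macrophages and 32.3 in leukemia cells. Of the 15 MLL-AF9 target genes, 0 were at least 2-fold higher in MA9 macrophages and 1, Hoxa5, was lower, with a median of 0.05. Over all genes, 285 of the 436 higher in MA9 (65.4%) had a higher level in leukemia cells than in MA9 macrophages, against 52.7% of all genes compared. Another 144 of the 436 were higher in MA9 macrophages than in both leukemia cell libraries. The share of all genes compared that did so was not counted, so the 144 are not read as a set apart. The part of leukemia cell RNA in these differences was not tested.

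**Figure D2:**
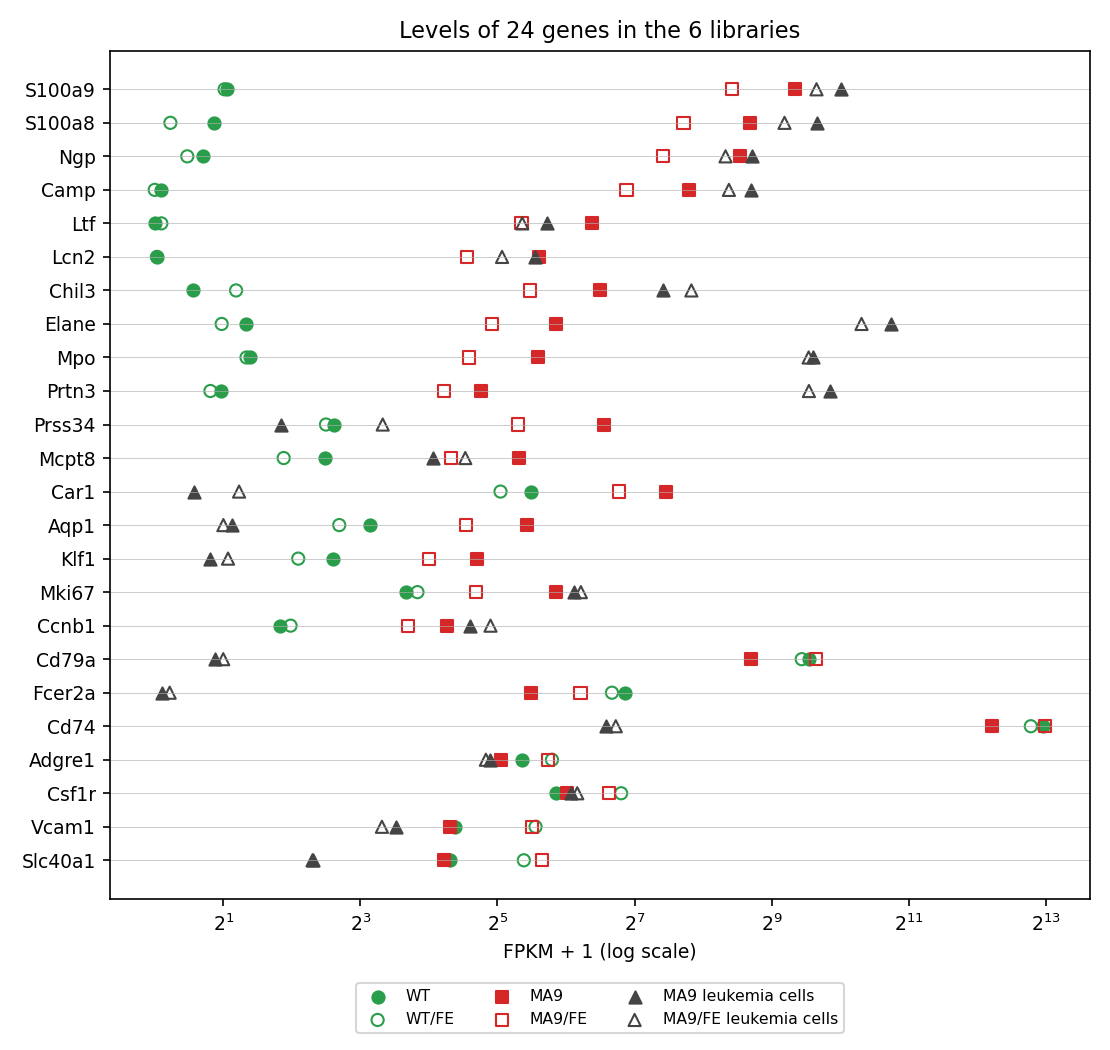
FPKM + 1 on a log2 axis of 24 genes in the 6 libraries, with 1 symbol per library. S100a9 to Prtn3 were near the left in WT and WT/FE and high in both MA9 macrophage libraries and the leukemia cells; Car1, Aqp1, Klf1 and Prss34 were highest in MA9 macrophages and low in leukemia cells; the macrophage genes Adgre1, Csf1r, Vcam1 and Slc40a1 lay closer together in WT and MA9, with Adgre1 at 40.1 and 32.2 FPKM.

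Proliferation genes were higher in MA9 across the whole list. Of 36 cell cycle and mitosis genes, 29 were at least 2-fold higher and 0 lower, all 36 lay above 0 and the median was 1.61. Ccnb1, the cyclin that drives entry into mitosis, had 2.56 FPKM (211 reads) in WT and 18.2 (1302 reads) in MA9, a ratio of 7.08 with an interval from 6.12 to 8.23. Cdc20, an activator of the anaphase-promoting complex, had 9.85 and 53.9 FPKM, Mki67, which encodes the Ki67 antigen, had 11.7 and 57.1, and Top2a, a topoisomerase of dividing cells, had 9.50 and 44.6. Members that act in DNA synthesis ranged widely. Rrm2, a subunit of ribonucleotide reductase, had 12.4 FPKM in WT and 58.7 in MA9 (difference 2.15). Mcm5, a subunit of the replicative helicase, had 20.3 FPKM in WT and 53.6 in MA9 (difference 1.36), Pcna, the sliding clamp, had 60.3 and 107.8 (0.83) and Cdt1, a licensing factor, had 1089 and 1282 reads (0.42). In leukemia cells, 34 of the 36 genes stood higher than in MA9 macrophages, with Mki67 at 68.5 and Mcm5 at 125.8 FPKM.

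Erythroid genes were also higher in MA9, and here the leukemia cells had little. Of 22 erythroid membrane and surface genes, 15 were at least 2-fold higher and 0 lower, with a median of 1.53. Aqp1, a water channel of red cells, had 7.84 FPKM in WT and 42.0 in MA9, a ratio of 5.36 with an interval from 4.81 to 5.99, and 1.17 in leukemia cells. Car1, a carbonic anhydrase of erythroid cells, had 44.0, 174 and 0.485 FPKM in the same order. Slc4a1, the anion exchanger band 3, had 2.15, 13.5 and 2.74, and Rhag, of the Rhesus complex, had 1.03, 7.37 and 0.447. Of the 22 genes, 21 were higher in MA9 macrophages than in both leukemia cell libraries, and Icam4 was at 0 in every library. How many of all genes compared were higher in this way was not counted. Of 13 erythroid transcription factors, 7 were at least 2-fold higher and 0 lower, with a median of 1.12. They were led by Gfi1b (2.27 and 13.5 FPKM), Klf1 (5.06 and 24.9), Tal1 (1.98 and 11.4) and Gata1 (2.21 and 11.5). Bcl11a, Lmo2 and Ldb1 of the same list lay at -0.29, -0.23 and -0.18.

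Heme and hemoglobin genes were listed apart. Of 14 heme biosynthesis genes, 3 were at least 2-fold higher, with a median of 0.41, among them Cpox (6.03 and 16.6 FPKM) and Alas2, the erythroid enzyme of the first step (1.41 and 4.09). Of 7 measured hemoglobin chains and chaperones, 3 were at least 2-fold higher and 0 lower, with a median of 0.68. The 4 that reached 1 FPKM in either library had a median of 1.36. Hba-a1 had 32.6 FPKM in WT and 103 in MA9, Hbb-bt 9.98 and 31.5 and Hbb-bs 37.1 and 83.4. These chains have near-identical copies, so the split of reads between copies is uncertain, and MA9 leukemia cells had 169 FPKM of Hba-a1 and 190 of Hbb-bs, above the MA9 macrophages. Tfr2, transferrin receptor 2, which erythroid cells use with the erythropoietin receptor, had 1.06 FPKM in WT and 7.45 in MA9, and Epor, that receptor, had 3.89 and 10.1. Tfrc, transferrin receptor 1, had 20.3 and 26.3.

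Basophil genes were higher in MA9 as well. Of 16 basophil and mast cell genes, 7 were at least 2-fold higher and 0 lower, with a median of 0.75. Prss34, a serine protease of basophils, had 5.14 FPKM in WT and 93.2 in MA9, against 2.58 in leukemia cells without iron and 9.03 in those with it. Mcpt8, a protease used as a basophil marker, had 4.57 FPKM in WT, 38.9 in MA9 and 15.6 in leukemia cells. Fcer1a, the alpha chain of the IgE receptor, had 1.28, 6.48 and 0.110, and Gata2 had 2.30, 9.27 and 14.4. The mast cell proteases Cma1 (2.77 and 1.08 FPKM) and Mcpt4 (14 reads and 0 reads) were not higher. Of 17 megakaryocyte and platelet genes, 3 were at least 2-fold higher, among them Pf4 (1.35 and 7.91 FPKM) and Itga2b (1.77 and 6.87). The median was 0.22.

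Plasma cell and B cell lists had medians of opposite sign. Of 18 plasma cell genes, 7 were at least 2-fold higher in MA9 and 0 lower, with a median of 0.88, and the list summed to 1626 FPKM in WT and 3023 in MA9. Jchain, which joins polymeric IgA and IgM, had 644.8 FPKM in WT and 1357 in MA9, Xbp1, the factor of the secretory program, had 74.2 and 171, and Sdc1, which encodes CD138, had 8.46 and 21.6. Of 233 immunoglobulin genes, kept apart, 131 (56.2%) were at least 2-fold higher and 11 (4.72%) at least 2-fold lower, with a median of 1.14. The shares over the protein-coding genes compared were 3.95% and 0.290%. They took 2.64% of reads in WT, 5.35% in MA9 and 0.0421% in leukemia cells. Ighg2c, the IgG2c constant region, had 158 FPKM in WT and 4388 in MA9, Ighg2b had 152 and 955, Igha had 737 and 2129 and Ighm had 5317 and 7002. Ighd, which resting naive B cells express, had 447 and 166.

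Of 23 B cell genes, 1 was at least 2-fold higher, 1 was lower and 17 lay below 0, with a median of -0.53. The lower one was Fcer2a, which encodes the low-affinity IgE receptor CD23 of mature B cells, at 115 FPKM in WT and 43.8 in MA9, a ratio of 0.380 with an interval from 0.362 to 0.398. The higher one was Rag1, at 0.217 and 1.73 FPKM. Cd79b, the partner chain of Cd79a, had 576.5 and 292, and Cr2, complement receptor 2, had 65.6 and 36.7. Cd22 had 156 and 102 and Pax5, the B lineage factor, 63.3 and 43.4. MHC class II genes lay in the same direction: of 14, 13 were below 0, 0 reached 2-fold and the median was -0.69. H2-Ab1 had 3128 FPKM in WT and 1909 in MA9, H2-Eb1 had 4041 and 2456, the invariant chain Cd74 had 7928 and 4730, and Ciita, the master regulator of the class, had 79.6 and 59.6. Fcmr, the receptor for IgM, had 278 and 123, and the lymphotoxin gene Ltb had 341 and 166. B cells express MHC class II at high levels too, and both lists had medians below 0; the part of B cell numbers in the class II difference was not tested.

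**Figure D3:**
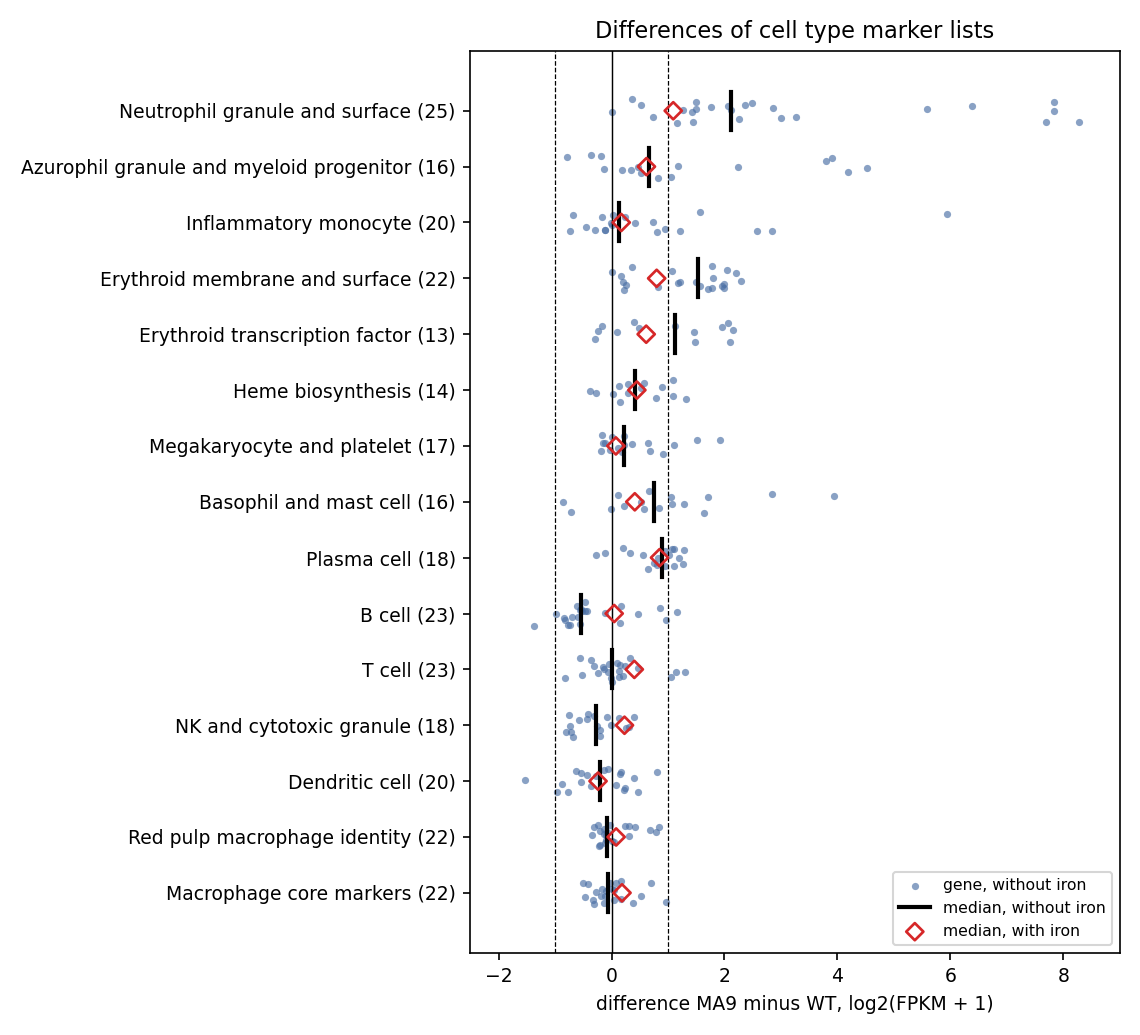
Difference between MA9 and WT, log2(FPKM + 1), of each gene in 15 cell type lists (points) with the median of the list (black bar) and, as a red diamond, its median in the pair with iron; the number of measured genes is in brackets. Neutrophil, erythroid, basophil and plasma cell lists have medians from 0.75 to 2.12, B cell genes have -0.53, and the macrophage lists have -0.08 and -0.07.

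The macrophage genes themselves lay close to equality. None of 22 macrophage core markers and none of 22 red pulp macrophage identity genes differed 2-fold, and their medians were -0.07 and -0.08. With 1 library each, this is a description of size and does not show that the levels were alike. Vcam1, which red pulp macrophages carry, had 19.9 FPKM in WT and 18.8 in MA9, Spic, their lineage factor, had 17.0 and 14.7, Slc40a1, the iron exporter ferroportin, had 18.8 and 17.6, and Hmox1, the enzyme that opens heme, had 104 in both. Fcgr4, an activating Fc receptor, was at the upper end with 16.3 and 32.8 FPKM (difference 0.97). Cd5l, an apoptosis inhibitor of macrophages, had 17.8 and 32.5. The scavenger receptor Marco was at the lower end with 134 and 72 reads (-0.51). C1qa, C1qb and C1qc, the chains of the first complement component, had differences of -0.11, 0.08 and -0.14.

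Genes tied to macrophage polarization differed in single members. Of 16 M1-associated genes, 1 was at least 2-fold higher in MA9, with a median of 0.09: Il12b, the p40 chain of IL-12 and IL-23, had 2.63 FPKM (101 reads) in WT and 10.2 (342 reads) in MA9, a ratio of 3.89 with an interval from 3.10 to 4.90. Tnf had 24.3 and 32.0 FPKM, Il1b 46.1 and 46.7 and Cd86 22.7 and 21.4, and Nos2 had 3 reads and 0 reads. Of 18 M2-associated genes, 2 were at least 2-fold higher, with a median of 0.10. They were Chil3, which is also high in the leukemia cells at 170 FPKM, and Il10, with 0.626 and 2.87 FPKM and 0 in both leukemia cell libraries. Mrc1, which encodes CD206, had 9.13 and 7.34, and Cd163 had 4.22 and 3.80. Arg1 had 0.299 and 1.11 FPKM, from 13 and 42 reads. The M1 and M2 medians of 0.09 and 0.10 cover all measured members. Over the 13 M1-associated and 14 M2-associated members with at least 1 FPKM in either library, they were 0.32 and -0.05.

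Of 24 genes of immune checkpoints and the CD47 axis, 2 were at least 2-fold higher in MA9: Tigit, with 3.35 and 12.6 FPKM, and Ctla4, with 1.47 and 5.07. Both are inhibitory receptors known from T cells and were near 0 in leukemia cells. Cd3d, a chain of the T cell receptor complex, had 2.09 and 2.88 FPKM, and the 23 T cell genes had a median of 0.00. Of these, 3 were at least 2-fold higher (Ctla4, Cd28 at 1.38 and 4.27 FPKM, and Cd8b1 at 2.38 and 5.99) and 0 lower, and Cd4 had 35.9 and 19.8. The ligands differed less. Cd274, which encodes PD-L1, had 49.0 and 49.4 FPKM, Lgals9, which encodes galectin-9, had 37.2 and 50.8, and Cd200 had 10.1 and 5.56. Cd47 had 55.6 and 54.1 and Sirpa, the receptor for CD47 on macrophages, 109 and 85.4. None of the ligands named here reached 2-fold.

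Among the chemokines, Ccl4 had 25.7 FPKM in WT and 69.6 in MA9 and Ccl3 had 32.4 and 62.0, with 32.0 and 173 in leukemia cells. Of 28 chemokine ligands, Ccl4 and Pf4 were at least 2-fold higher. The chemokine receptor Cxcr3 had 755 reads in MA9, a ratio of 3.47 to WT, and 0.286 FPKM in leukemia cells. The complement component C3 had 3.06 FPKM in WT, 13.8 in MA9 and 91.5 in leukemia cells. Interferon response genes had a median of -0.14, and Iigp1, an immunity-related GTPase, was the 1 of 30 at least 2-fold higher, with 1.59 and 9.54 FPKM. Of 23 Toll-like receptor and adaptor genes, 19 lay below 0 and 0 reached 2-fold, with a median of -0.17.

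**Figure D4:**
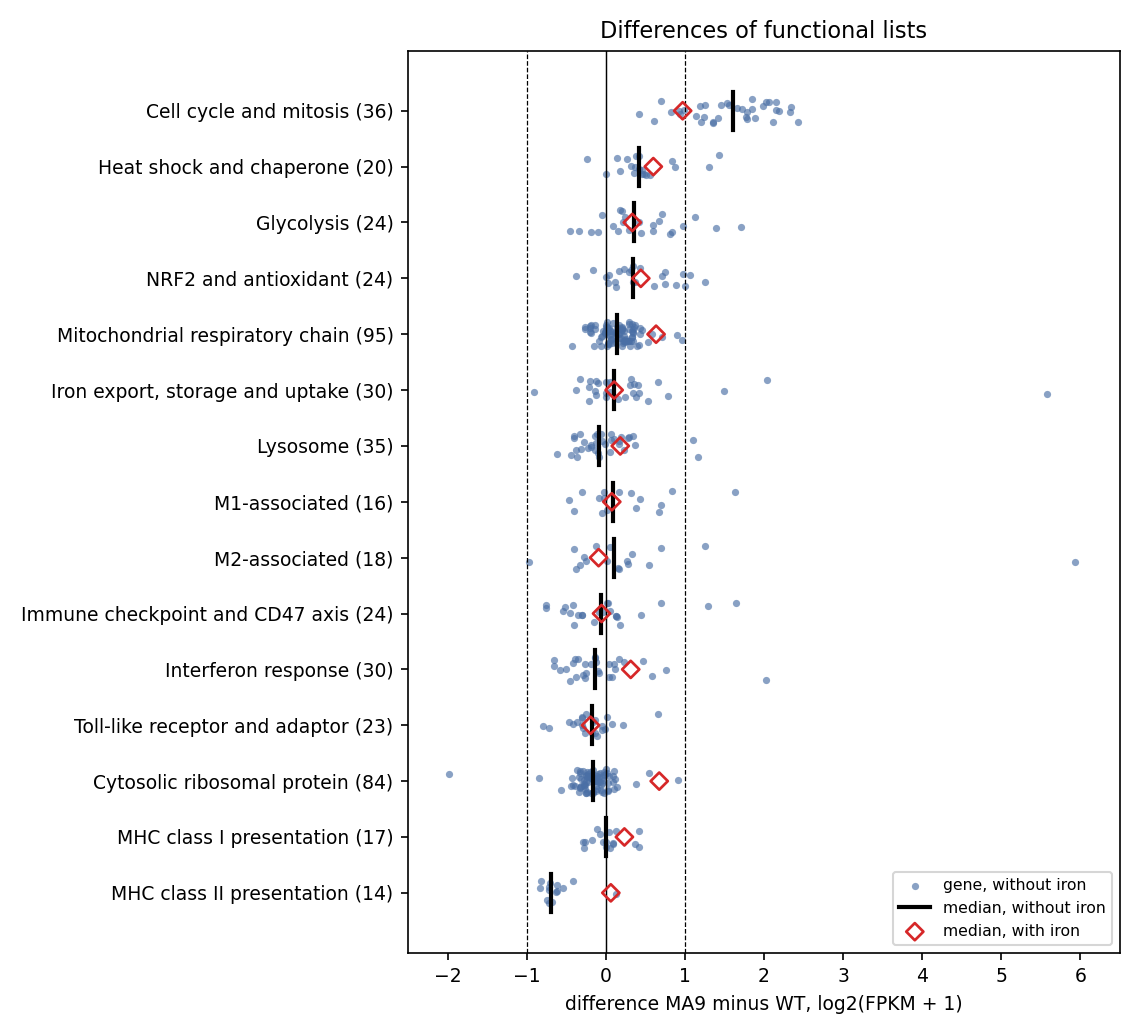
Difference between MA9 and WT, log2(FPKM + 1), of each gene in 15 functional lists (points), with the median without iron (black bar) and with iron (red diamond). Cell cycle genes have a median of 1.61 and MHC class II genes one of -0.69. Over all measured members, the M1-associated and M2-associated lists lie at 0.09 and 0.10. Ribosomal protein genes lie at -0.16 without iron and 0.68 with iron.

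Metabolic and stress lists lay slightly above 0. The chaperone list had a median of 0.42 over 20 genes, with 19 above 0, and its 2 members past 2-fold were the near-identical Hsp70 genes Hspa1a (7.72 and 22.6 FPKM) and Hspa1b (12.7 and 32.7). Of 24 NRF2 and antioxidant genes, 22 lay above 0, with a median of 0.34. Txn1, thioredoxin, had 79.1 and 167 FPKM and Gstm1, a glutathione transferase, had 3.65 and 10.1. MA9 leukemia cells had 159 FPKM of Txn1 and 239 of Gstm1. Of 24 glycolysis genes, 3 were at least 2-fold higher, with a median of 0.36: the monocarboxylate transporter Slc16a1 (2.80 and 11.4), Pfkm (1.64 and 5.93) and Hk3 (8.36 and 19.4). Leukemia cells had 299.7 FPKM of Hk3, and 20 of the 24 genes were higher there than in MA9 macrophages.

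The lower genes were few and of mixed function. The largest drop was in Slc15a2, a peptide transporter, with 6.77 FPKM (973 reads) in WT and 0.655 (82 reads) in MA9, a ratio of 0.0968 with an interval from 0.0763 to 0.121. Cd209a, a C-type lectin of dendritic cells, had 39.0 and 12.8 FPKM, and the macrophage elastase Mmp12 had 1415 and 346 reads. The ribosomal protein gene Rps27rt had 998 and 251 FPKM, but it is near-identical to another gene and its reads may be split by the counting. Of the 15 largest drops with at least 5 FPKM, the other named genes were Lars2, Fcer2a, Ephx1, Fcmr, Cnn3, Ddit4, Tstd1, Krtcap3, Sumo2, Ltb and Pglyrp2. Ddit4, a stress-induced inhibitor of mTOR signalling, had 89.3 and 41.0 FPKM, and Sumo2 had 40.9 and 19.0.

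The pair with iron gave a second set of values for the same question. Of the 436 genes higher in MA9 without iron, 162 (37.2%) were also at least 2-fold higher in MA9/FE than in WT/FE, against 2.29% of all genes, and 421 had the same sign, against 54.2% of all genes above 0 in the pair with iron. Of the 253 genes higher under iron, those 162 made up 64.0%. Of the 32 lower genes, 4 (12.5%) were also lower under iron, against 0.481% of all genes, and 18 had the same sign. The 4 were Ddit4, Sumo2, Xlr3b and Gm17545, the last of which had 7 reads in WT. Across the 11027 genes, which are not independent replicates, the differences of the pairs had a Pearson correlation of 0.59 and a Spearman correlation of 0.43.

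**Figure D5:**
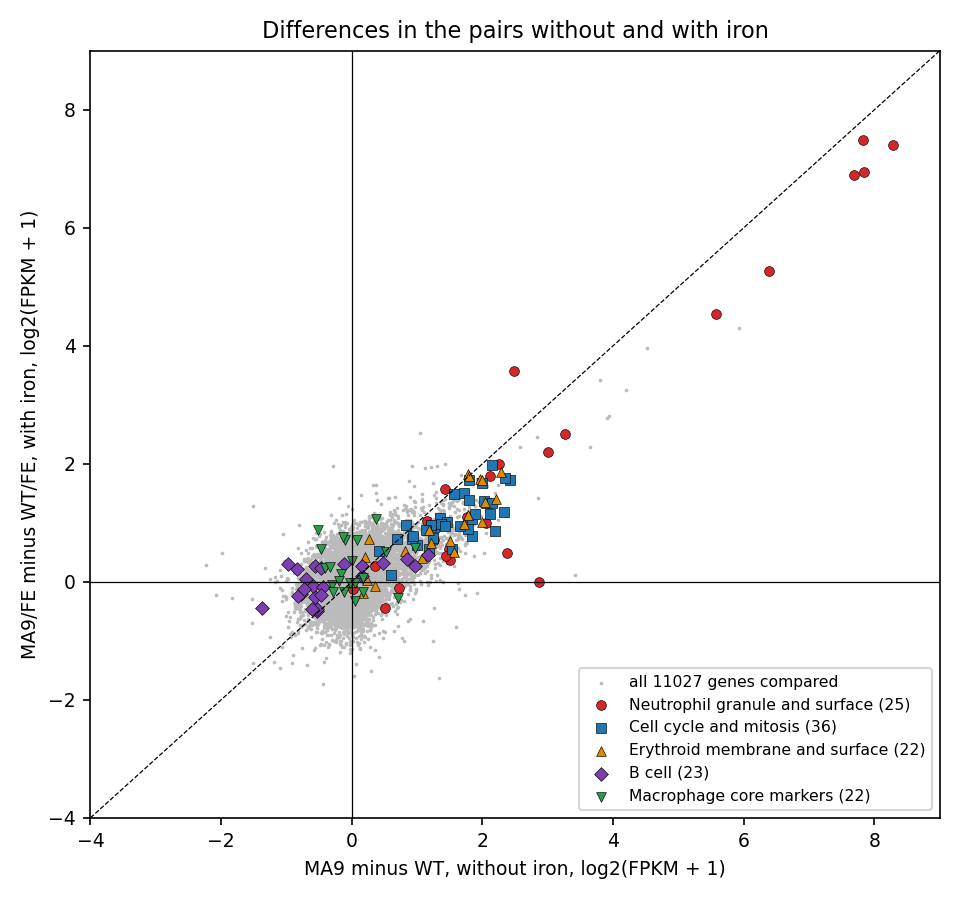
Difference without iron (MA9 minus WT, x axis) against the difference with iron (MA9/FE minus WT/FE, y axis), both log2(FPKM + 1), for the 11027 genes, with 5 lists coloured and a dashed line of equal differences. Neutrophil, cell cycle and erythroid genes lie to the right and mostly below the dashed line, so their differences with iron were smaller, and B cell genes lie left of 0 and around 0 on the y axis.

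The median of the M2-associated list was 0.10 without iron and -0.09 with iron, and that of the MLL-AF9 target list 0.05 and -0.02. Over their members with at least 1 FPKM in WT or MA9, the medians without iron were -0.054 and -0.046. No change of sign between the pairs is therefore read from these 2 lists. The lists described next had medians above 0 in both pairs, and their sizes differed in both directions. The median of the neutrophil list was 1.09 with iron against 2.12 without, that of the cell cycle list 0.97 against 1.61, and that of the erythroid membrane list 0.80 against 1.53. S100a9 had 1.03 FPKM in WT/FE and 342 in MA9/FE, and Ccnb2 had 9.95 and 33.6. Olfm4, a granule protein, had 4.17 FPKM in MA9 and 0.399 in MA9/FE, and Stfa1 had 9.69 and 0.0876. The plasma cell median was 0.85 with iron against 0.88 without, and the azurophil median 0.62 against 0.67. Larger medians with iron included those of heme biosynthesis (0.45 against 0.41), chaperones (0.60 against 0.42) and NRF2 genes (0.44 against 0.34). Those of the T cell list (0.40 against 0.00) and the mitochondrial respiratory chain list (0.64 against 0.15) were larger too. The hemoglobin list had 0.99 against 0.68 over 7 members, of which 4 reached 1 FPKM in WT or MA9. Of these 4, Hba-a1, Hbb-bt and Hbb-bs had 1.47, 1.38 and 0.99 with iron against 1.64, 1.57 and 1.15 without. The other is not reported here, so no direction is read from the hemoglobin list. Across all genes compared, the difference had a Spearman correlation with exon length of -0.50 with iron and 0.01 without. The part of length in these medians was not tested. The difference between the pairs was not tested, because each rests on 1 library per condition.

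Over the 4 macrophage libraries, an additive fit of leukemia and iron in limma called 442 of 13655 genes for leukemia at an adjusted p of 0.05 or less, 368 higher (2.69%) and 74 lower (0.542%). The 13655 were genes of all biotypes. Among them were 10818 of the protein-coding genes described above, of which 275 were called higher and 13 lower. This fit holds the MA9 and WT libraries and has 1 residual degree of freedom, so it is not separate evidence. It called 238 of the 436 higher genes and 6 of the 32 lower genes in the same direction. It called 14 of 21 tested neutrophil genes, 27 of 36 cell cycle genes, 11 of 18 erythroid membrane genes, 5 of 9 basophil genes and 4 of 18 plasma cell genes as higher. It called no gene of the B cell or MHC class II lists, and no macrophage core marker, in either direction. Of the 22 red pulp macrophage genes it called 1 higher, Blvrb, a biliverdin reductase with 17.0 FPKM in WT and a difference of 0.78 in MA9, at 0.90 ± 0.19 and an adjusted p of 0.042 in limma. For S100a9 limma gave a log2 difference of 7.84 ± 0.24 (SE) with an adjusted p of 1.8e-06, for Elane 4.24 ± 0.20 with 3.5e-05, and for Prss34 3.37 ± 0.27 with 0.00075. For Klf1 limma gave 2.01 ± 0.18 with an adjusted p of 0.0015, for Ccnb1 2.08 ± 0.22 with 0.0034, and for Il10 1.16 ± 0.24 with 0.038. For Tigit limma gave 1.43 ± 0.20 with an adjusted p of 0.0091. Among the lower genes, Ddit4 had -1.29 ± 0.24 with an adjusted p of 0.030 in limma and Sumo2 -1.08 ± 0.19 with 0.022, whereas Slc15a2 had -0.97 ± 0.48 with 0.36 and Fcer2a -0.91 ± 0.28 with 0.15.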

How the data were processed

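RNA of sorted cells was measured by RNA-seq in 6 libraries. The authors deposited FPKM per gene. The submitters' processing notes name Bowtie2 2.2.5, RSEM and mm10, and the methods name a service provider. Groups were taken from the labels. The members and the gene lists were chosen with earlier results of these data known.

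Identifiers were matched to GENCODE M21 (54495 of 54532). FPKM multiplied by exon length gave whole multiples of 1 step, within 0.05 reads, for 96.8% to 97.0% of the values above 0, and these were used as recovered reads. Libraries were scaled in pairs by TMM (coded by hand, unweighted, with 30% of ratios and 5% of levels trimmed), and differences were taken on the log2(FPKM + 1) scale, where changes of low genes come out too small. A 2-fold difference was called with no test. Ratios of reads have exact (Clopper-Pearson) 95% intervals, which do not cover the spread between mice. limma 3.58.1 (R 4.3.3) was fitted with leukemia and iron as terms to genes of all biotypes that reached 1 FPKM in 2 or more of the 4 macrophage libraries. Benjamini-Hochberg adjustment was made over all genes tested. Genes whose transcripts have near-identical copies are uncertain. The named genes are the 15 largest rises and 15 largest falls with at least 5 FPKM (predicted genes apart), for each of 45 lists the 4 largest differences and the 3 highest levels, the gating genes, and the genes of the real-time PCR and checkpoint panels. Other list members were named after their values were seen. Some list members are not reported here. Steps were tested on simulated data. Python 3.11.15, pandas 2.3.3, scipy 1.17.1 and statsmodels 0.14.6 were used.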

Additional observations from a re-analysis of the deposited data

Results flagged for a closer look

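Genes given here were at least 2-fold apart between leukemic and leukemia-free macrophages in both pairs, in opposite directions. Lists given here had medians of opposite sign, at least 0.5 apart, without and with iron. Other list medians changed sign by less. Among them were interferon response (-0.14 without iron and 0.31 with iron), macrophage core markers (-0.07 and 0.19) and M2-associated genes (0.10 and -0.09). Over the 14 M2-associated members with at least 1 FPKM in WT or MA9, the median without iron was -0.05. The difference between the pairs was not tested, because each condition has 1 library. Lars2, a mitochondrial leucyl-tRNA synthetase, was at -1.51 without iron and 1.29 with iron. Without iron it had 102 FPKM in WT and 35.1 in MA9, and with iron 59.4 in WT/FE and 145 in MA9/FE. The noncoding gene Gm26917 had 300.1, 117, 193 and 416 FPKM in the same order, and Gm23935, annotated as a miRNA, had 66326, 24334, 41354 and 93020, so all 3 ranked the libraries alike. Their part in the Lars2 difference was not tested.

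Tmem254c was at 1.33 without iron and -1.63 with iron, from 1 read in WT and 43 in MA9, and it has near-identical copies. Gm11084 was at 1.25 and -1.002, from 6 and 14 reads.

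The median of the B cell list was -0.53 without iron and 0.046 with iron. That of the MHC class II list was -0.69 without iron and 0.064 with iron, and that of NK and cytotoxic granule genes -0.28 and 0.23. The median of the cytosolic ribosomal protein genes was -0.16 without iron and 0.68 with iron, and 69 of 84 lay below 0 in the first pair and 82 above 0 in the second. Across the 11027 genes the difference had a Spearman correlation with exon length of 0.01 without iron and -0.50 with iron, and ribosomal protein genes are short. The part of length in the ribosomal difference was not tested.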

How the results depend on the processing

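No paired analysis was possible because each condition has 1 library and the labels carry no number that pairs animals. For the same reason no library could be left out: the fit over 4 libraries would keep no residual degree of freedom. The number of genes with a 2-fold difference, 468, lay between 467 and 475 under the other scalings (FPKM as deposited, median of ratios, or TMM leaving out hemoglobin and immunoglobulins) and after removal of the trend on exon length. It was 809 with a pseudocount of 0.1 (708 higher and 101 lower), 1077 over all biotypes (771 higher and 306 lower), and 165 (144 higher and 21 lower) when restricted to genes above both leukemia cell libraries, an alternative chosen after seeing the data. The number of genes at least 2-fold apart in the same direction in both pairs, 166, became 345 with a pseudocount of 0.1, 155 with median of ratios and 113 with the exon length trend removed. The 442 genes that limma called became 1 with no minimum FPKM (27396 genes tested, 2519 at an unadjusted p under 0.05) and 24 without the iron term (21 higher and 3 lower, 2539 unadjusted), against 2206 unadjusted in the fit reported. Other filters and scalings gave 342 to 482. Of the 45 list medians, 3 moved by over 1.5-fold with a pseudocount of 0.1. None of the 4 list medians past 2-fold and no named gene past 2-fold changed direction under any alternative. The other scalings, the pseudocount and removal of the length trend kept the median over all genes between -0.0043 and 0.014. A 2-fold difference could therefore hardly have changed direction, so this says little about how firm it is. Smaller medians were not checked for direction. Depth limits genes with few reads, and the lack of replicates limits every difference.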

Other observations

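Genes of germinal center B cells, a list chosen after their values were seen and given without a test, were higher in MA9. Of 11 such genes, 6 were at least 2-fold higher, against 3.95% of all genes compared. All 11 lay above 0, against 49.5%, and the median was 1.12. Because the list was picked on these values, the counts are no support for it. All 11 were also higher in MA9 macrophages than in both leukemia cell libraries, a share not counted over all genes. Mef2b, a factor of germinal center B cells, had 2.88 FPKM in WT and 16.8 in MA9, Nuggc 1.63 and 8.61, Mybl1 1.01 and 5.93, S1pr2, the receptor that keeps B cells in the germinal center, 0.958 and 3.88, and Rgs13 1.33 and 4.05. Bcl6, the master factor of these cells, had a difference of 0.14, from 2601 and 2507 reads, and Fas had 6.23 and 8.46 FPKM. With iron, 5 of the 11 were at least 2-fold higher, against 2.29% of all genes compared, and 10 lay above 0, against 54.2%. The median with iron was 0.76, and Nuggc had 2.73 FPKM in WT/FE and 7.32 in MA9/FE.

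Among the B cell genes, these were looked at after their values were seen and were not tested: Rag1 had 28 reads in WT and 194 in MA9, Igll1 had 0 and 35, Vpreb1 had 1 and 18, and Dntt had 31 and 34. Of them, Rag1 passed 2-fold.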
